A study of Mus musculus with 14 samples.

Results

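Of the 40772 H3K27ac regions in the authors' region table, 1947 (4.78%) start or end between 1 and 3 kb from the nearest transcription start site (TSS), and these flanking regions are described here. They were taken by the table's own position labels, which count 966 regions at 1 to 2 kb and 981 at 2 to 3 kb. The label uses the distance from the nearer edge of a region to the TSS, and no measured signal entered the choice. Of the 1947 regions, 687 lay upstream and 1260 downstream of the TSS, and they belonged to 1633 genes, of which 279 had more than 1 such region.

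H3K27ac, acetylation of lysine 27 of histone H3, marks active promoters and active enhancers. The nucleosomes that flank a start site carry the mark, and the start site itself is usually depleted of nucleosomes. A region that stands apart from the start by 1 kb or more can be the shoulder of a broad promoter domain, a promoter-proximal enhancer or an unannotated alternative start. Fibroblast growth factor 2 (FGF-2) binds receptor tyrosine kinases and activates the RAS and ERK pathway, which acts on promoters through factors of the ETS, AP-1 and serum response factor families.

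The cells were Y1, a mouse adrenocortical tumour cell line. All were starved of serum for 48 h, then given 10% fetal bovine serum, alone or with 10 ng/ml FGF-2, for the 5 h before harvest, so both groups had serum and FGF-2 is what differs. H3K27ac chromatin was sequenced in 2 libraries per group and polyadenylated RNA in 3 libraries per group. The labels do not say whether libraries came from separate cultures, so p-values measure the spread between libraries, which may be technical. The RNA held the adrenocortical markers Nr5a1, Star, Cyp11a1, Fdx1 and Scarb1, while 2 of the 10 adrenocortical markers, Nr0b1 and Cyp21a1, had 0 counts in every library and 3 others, Mc2r, Hsd3b1 and Akr1b7, had at most 22 counts in a group and did not pass the filter.

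The H3K27ac libraries held 11840994 to 14156846 fragments and the RNA libraries 5625004 to 12696426 counts in genes. Serum library 2 had 28.0% of its fragments in regions, against 34.1% to 35.3% in the other 3 libraries, and its input had 110273836 fragments against 12241177 to 15672630. The part of these differences in the results was not tested, and values without single libraries stand beside the results they change. The deposited signal of a region is a read count divided by a factor of its library. Differences are given as log2(signal + 5), serum with FGF-2 minus serum alone. They carry the standard error (SE) of limma, n = 2 libraries per group. For single regions limma draws this spread largely from other regions of like signal. The SE and p-value of a region thus hardly reflect the spread of its own libraries. Scaling the libraries by TMM moved the median change of all regions from 0.10 to -0.017 and that of the flanking regions from 0.14 to 0.033, so both medians sank by a like amount and directions of small changes depend on the scaling. Called means an adjusted p below 0.05 over all 40772 regions.

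The bases before the start sites help to place the results. The first promoters are shown because the flanking region of the gene rose: Srxn1 and Pigc, whose flank rose more than the start region, and Dusp5 and Spred2, feedback regulators of ERK signalling. The others are shown because the bases themselves lie inside a flanking region, that is, RefSeq places a start where the authors' annotation counts 1 to 3 kb: a start of Gm33659 in a region assigned to 4930543E12Rik, one of Gm10369 in a region assigned to Limk1, and one of Sco2 in a region assigned to Tymp. Each run is the 250 bases before the RefSeq start (build GRCm38.p6), written on the gene's strand, and capitals mark matches on either strand to AP-1 (TGANTCA), ETS (CNGGAAG) or the CArG box of serum response factor.
Srxn1 (chr2:152105274-152105523, plus strand): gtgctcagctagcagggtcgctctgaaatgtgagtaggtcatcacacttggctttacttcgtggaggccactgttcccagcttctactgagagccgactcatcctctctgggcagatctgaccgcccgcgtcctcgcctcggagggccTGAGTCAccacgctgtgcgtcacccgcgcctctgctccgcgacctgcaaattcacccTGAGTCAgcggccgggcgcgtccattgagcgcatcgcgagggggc
Pigc (chr1:161968938-161969187, plus strand): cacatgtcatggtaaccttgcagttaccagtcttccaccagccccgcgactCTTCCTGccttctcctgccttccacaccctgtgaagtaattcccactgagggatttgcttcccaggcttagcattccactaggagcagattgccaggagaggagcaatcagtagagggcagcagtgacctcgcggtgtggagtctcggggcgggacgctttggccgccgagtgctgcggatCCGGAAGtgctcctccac
Dusp5 (chr19:53528895-53529144, plus strand): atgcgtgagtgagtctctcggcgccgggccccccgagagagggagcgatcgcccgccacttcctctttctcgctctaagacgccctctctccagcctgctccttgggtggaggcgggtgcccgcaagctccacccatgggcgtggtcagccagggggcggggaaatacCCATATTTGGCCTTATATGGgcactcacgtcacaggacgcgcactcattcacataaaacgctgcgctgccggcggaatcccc
Spred2 (chr11:19924192-19924441, plus strand): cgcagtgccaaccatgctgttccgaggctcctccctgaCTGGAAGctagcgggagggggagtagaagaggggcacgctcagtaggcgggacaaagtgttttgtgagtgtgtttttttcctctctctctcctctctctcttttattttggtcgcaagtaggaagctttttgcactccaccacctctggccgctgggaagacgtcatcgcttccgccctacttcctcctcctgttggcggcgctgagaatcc
Gm33659 (chr7:113151351-113151600, plus strand): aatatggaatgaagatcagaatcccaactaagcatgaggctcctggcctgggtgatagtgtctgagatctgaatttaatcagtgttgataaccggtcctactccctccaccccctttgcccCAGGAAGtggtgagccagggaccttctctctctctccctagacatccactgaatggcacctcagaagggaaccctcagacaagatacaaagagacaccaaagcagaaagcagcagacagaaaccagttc
Gm10369 (chr5:134675868-134676117, plus strand): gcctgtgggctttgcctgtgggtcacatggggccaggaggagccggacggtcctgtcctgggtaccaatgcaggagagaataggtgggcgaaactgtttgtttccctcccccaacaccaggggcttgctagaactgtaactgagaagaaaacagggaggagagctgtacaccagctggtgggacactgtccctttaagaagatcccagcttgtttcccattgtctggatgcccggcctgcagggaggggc
Sco2 (chr15:89373892-89374141, minus strand): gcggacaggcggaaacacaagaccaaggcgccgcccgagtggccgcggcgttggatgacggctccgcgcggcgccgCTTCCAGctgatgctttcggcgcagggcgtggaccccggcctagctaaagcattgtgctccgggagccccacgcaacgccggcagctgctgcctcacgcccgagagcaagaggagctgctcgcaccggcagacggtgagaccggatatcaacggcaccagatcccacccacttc

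The Srxn1 window held 2 copies of the AP-1 letters, the Pigc window 2 of the ETS letters and the Dusp5 window 2 adjoining CArG boxes, while the Gm10369 window held none of the 3 motifs. Over all 32851 RefSeq windows of this length, 6.75% held the AP-1 letters, 26.6% the ETS letters and 1.47% a CArG box, on either strand. Among 224 windows of genes with a flanking region called higher the shares were 4.46%, 33.9% and 1.34%. Among 59 windows of genes with one called lower they were 6.78%, 33.9% and 0%. The ETS letters were thus as frequent in the windows of genes whose flank fell as in those whose flank rose.

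Windows of all genes with a flanking region were richer in CpG, with a median of 14 CpG against 6, and 30.1% held the ETS letters. The GGGCGG letters of KLF and SP factors were in 55.6% of them against 32.7% of all windows, and the GGCGCC letters, which can overlap the former, in 16.4% against 9.59%. The E2F letters (GCGGGAA) were in 6.93% of these windows against 3.82% of all windows. The other motifs searched were CRE, SF-1, TEAD (GGAATG), FOXO (GTAAACA) and NF-Y (CCAAT). Their shares were 1.05% to 31.4% in these windows and 1.33% to 33.8% in all windows. A match is a description of the letters and was not tested as a site.

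Flanking regions rose more often than they fell with FGF-2. In limma, 266 of 1947 were called higher (13.7%) and 63 lower (3.24%), close to the shares of the whole table, in which 13.0% were called higher and 3.89% lower. Their share of calls was therefore not particular to the position 1 to 3 kb from a TSS. Among the 266, the median change was 1.29, 236 changed by at least 1 and 26 by at least 2 on the log2 scale, and the median signal went from 10.8 with serum alone to 36.9 with FGF-2. Among the 63 called lower, the median change was -1.08 and 45 changed by at least 1. The median signal in the latter went from 48.5 to 19.9. More peaks were listed for the FGF-2 libraries, 50317 and 46712, than for the serum libraries, 44340 and 41975. Of the 266 regions, 132 had a peak in both FGF-2 libraries and in no serum library. Of the 63, 18 had one in both serum libraries and in no FGF-2 library. The part of the peak lists in the excess of rises was not tested.

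The split between directions depended on the scaling and the test. With TMM scaling 199 were higher and 99 lower. With edgeR on the recovered reads 191 were higher and 91 lower, where 10.6% and 6.69% of all regions were called, so that the higher regions made up 67.7% of the calls in place of 80.9%. The authors' deposited table has 147 flanking regions higher and 26 lower at a false discovery rate below 0.05, where 8.33% and 1.64% of all its regions are. These 3 tests together called 142 regions higher and 25 lower. DESeq2 on the recovered reads called fewer, 89 higher and 27 lower. Shares of all regions under TMM scaling and DESeq2 are not given here, so these counts are not read as particular to flanking regions. Without FGF-2 library 1 limma called 75 higher and 26 lower, without FGF-2 library 2 152 and 19, and without serum library 1 259 and 27.

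The share of all region signal that lay in flanking regions was 2.40% and 2.47% with serum alone and 2.62% and 2.51% with FGF-2. Both FGF-2 libraries were above both serum libraries, with a mean of 2.56% ± 0.077 (SD, n = 2) against 2.44% ± 0.051 (SD, n = 2). The exact two-sided permutation p was 0.333, the smallest that 2 against 2 libraries allow.

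In width and density the flanking regions were like regions far from starts. Their median width was 583 bases against 1366 for regions within 1 kb of a TSS, 599 in introns and 641 in distal intergenic sequence. Their median signal per kb was 40.7, against 87.2, 40.9 and 42.6. In regions within 1 kb, 335 of 12484 were called higher (2.68%) and 175 lower (1.40%), in introns 17.7% and 4.43%, and in distal intergenic regions 18.3% and 5.99%. The regions within 1 kb also have the highest signal, and the part of signal and width in these shares was not tested.

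**Figure D1:**
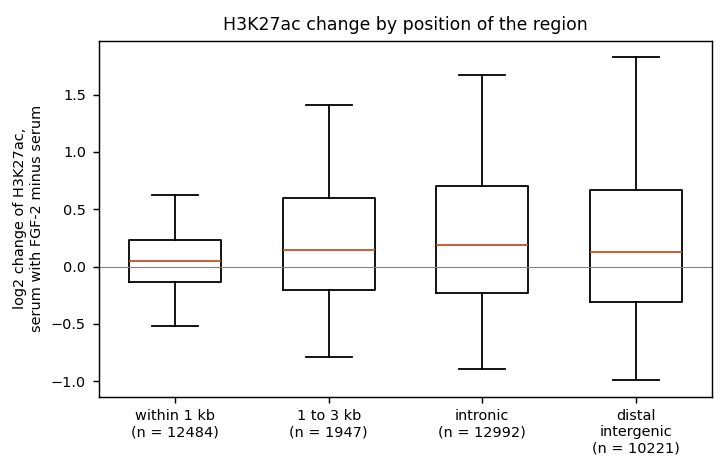
Log2 change of H3K27ac (serum with FGF-2 minus serum alone, on the log2(signal + 5) scale) for regions within 1 kb of a TSS, 1 to 3 kb away, in introns and in distal intergenic sequence. Boxes span the quartiles, the coloured line is the median and whiskers reach the 5th and 95th percentiles; the box of the 1947 flanking regions, from -0.20 to 0.59, is wider than that of the 12484 regions within 1 kb.

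In 8 steps of 250 bases, 10.6% to 17.0% of regions were called higher and 2.15% to 4.43% lower, with no order along the distance. Upstream regions were called higher in 12.5% and lower in 3.64%, downstream regions in 14.3% and 3.02%. Regions just inside the inner limit, at 1000 to 1100 bases, had a median signal of 22.1 and a median change of 0.13. Those just outside it, at 900 to 1000 bases, had 19.5 and 0.13. The calls there were 15 higher (16.3%) and 1 lower (1.09%) of 92 inside and 5 higher (5.95%) and 6 lower (7.14%) of 84 outside, a difference that was not tested. At the outer limit the medians were 29.6 and 0.074 at 2900 to 3000 bases and 26.8 and 0.14 at 3000 to 3100 bases.

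Itga5, Dusp7 and Srxn1 were among the genes with the largest increases. Itga5 encodes the integrin subunit alpha 5, which pairs with beta 1 to bind fibronectin. Its region 2049 bases upstream (chr15:103368840-103371917) had signals of 55.25 and 88.58 with serum alone and 459.3 and 361 with FGF-2, so both FGF-2 libraries were several times above both serum libraries. The change was 2.46 ± 0.25 (SE), with an adjusted p of 4.47e-19 in limma. It lay between 2.14 and 2.77 over 9 other settings of pseudocount, scaling and left-out library. The Itga5 start region rose by 0.66. Itga5 RNA was 541, 520 and 1238 CPM with serum alone and 6183, 5434 and 7333 CPM with FGF-2, with a log2 change of 3.04 ± 0.36 (SE; edgeR adjusted p = 0.0004).

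Dusp7 encodes a phosphatase that removes phosphate from ERK. Its region 2328 bases downstream of the TSS had signals of 0.92 and 2.51 with serum alone and 54.2 and 45 with FGF-2. One serum library stood at the floor of 1 read. The change was 3.03 ± 0.40 (SE; limma adjusted p = 6.77e-12), and at such low serum values it depends on the constant added, with 4.28 for a pseudocount of 1 and 1.68 for 20. The Dusp7 start region rose by 1.22. Dusp7 RNA rose from 16.1 to 24.4 CPM with serum alone to 118 to 170 CPM with FGF-2, a log2 change of 2.81 ± 0.19 (SE).

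Srxn1 encodes sulfiredoxin, which restores oxidised peroxiredoxins. Its region 2996 bases upstream had signals of 5.52 and 1.67 with serum alone and 73.22 and 40 with FGF-2. The FGF-2 libraries differed from each other, and both were above the serum libraries. The change was 2.82 ± 0.38 (SE; limma adjusted p = 3.07e-11), and RNA changed by 4.07 ± 0.42 (SE; edgeR adjusted p = 0.00033).

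Other large increases were at Shisal2a, Pigc, Stra8, Prune2 and Golga7. Pigc, an enzyme of glycosylphosphatidylinositol anchor synthesis, had 0.92 and 4.18 against 48.5 and 31 (2.57 ± 0.40, SE). Stra8, known for the start of meiosis in germ cells, had 18.42 and 7.52 against 93.19 and 69 (2.32 ± 0.33, SE), and its RNA did not pass the filter on low counts. These increases, and those of Itga5, Dusp7 and Srxn1 above, were chosen among called regions with a mean signal of at least 20 whose groups did not overlap. The lack of overlap is thus no result. Mean signals of Dusp7, Pigc, Prune2, Golga7 and Srxn1 with serum alone were between 1.715 and 3.595. These regions therefore reached 20 only through the FGF-2 libraries. The RNA of Pigc changed by 0.31 with an adjusted p of 0.155 in edgeR, so its rise in H3K27ac was without a called RNA change.

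Of the 10 largest decreases with a mean signal of at least 20 and no overlap between groups, 7 were at genes that carry only a clone or model name, and the others were at Zfp568, Wdfy1 and Inhbe. Zfp568 encodes a KRAB zinc finger repressor. Its region 2095 bases upstream had signals of 132.6 and 133.71 with serum alone and 38.99 and 37 with FGF-2, with close agreement within each group. The change was -1.68 ± 0.28 (SE; limma adjusted p = 1.41e-07), between -1.82 and -1.40 over 9 other settings, while Zfp568 RNA had a change of 0.0014 ± 0.12 (SE; edgeR adjusted p = 0.993). Wdfy1, an endosomal adaptor, had 31.31 and 33.43 against 6.66 and 9 (-1.55 ± 0.38, SE), and its RNA fell by 0.33 on the log2 scale (edgeR adjusted p = 0.0377). Inhbe, which encodes the activin subunit beta E, had 53.41 and 42.62 against 13.31 and 21 (-1.27 ± 0.34, SE). The call of Inhbe was lost without serum library 1 (limma adjusted p = 0.0501) and without FGF-2 library 1 (adjusted p = 0.142).

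**Figure D2:**
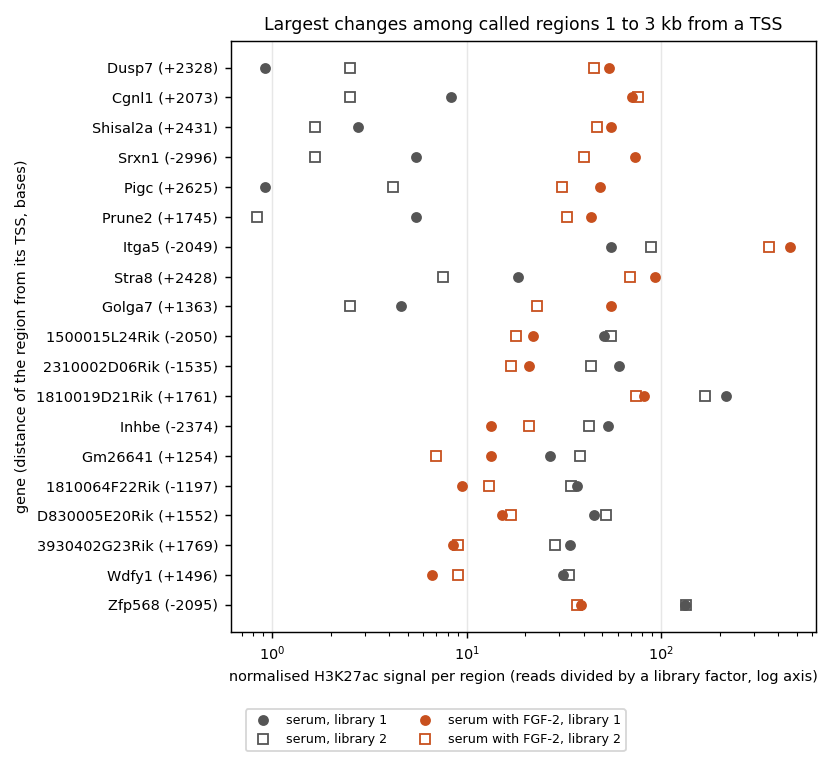
Normalised H3K27ac signal (log axis) in the 4 libraries for 9 called increases and 10 called decreases among those of largest change with a mean signal of at least 20 and no overlap between groups. Filled circles are library 1 and open squares library 2, grey for serum alone and orange for serum with FGF-2; the increases at Dusp7 and Pigc start from a serum value of 0.92, the floor of that library.

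Of 10 regions at 7 genes of ERK feedback and ETS targets, 6 rose and 0 fell, where 13.0% of all regions were called higher and 3.89% lower. Their median change was 0.85 against 0.10 over all regions. The RNA of all 5 genes tested rose, where 22.1% of all tested genes did. This list was drawn up with earlier results on these data known. Dusp5, a nuclear ERK phosphatase, had signals of 109.58 and 127.86 against 348.99 and 309 at 1449 bases (1.43 ± 0.25, SE), between 1.30 and 1.54 over 9 settings. Dusp2, another phosphatase of this family, had 174.96 and 167.98 against 378.47 and 412 (1.18 ± 0.25, SE). In both genes the libraries of a group lay near each other and apart from the other group.

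Spred2, an inhibitor of RAS to RAF signalling, had 2 flanking regions upstream that rose. The nearer one, at 1039 bases, had 12.89 and 13.37 against 53.25 and 52 (1.67 ± 0.35, SE). The broad one, which starts at 1957 bases, had 558.02 and 475.52 against 868.21 and 824 (0.71 ± 0.23, SE), and its call was lost without FGF-2 library 1 (limma adjusted p = 0.52) and without FGF-2 library 2 (adjusted p = 0.377). Phlda1 had 1 region at 2875 bases that rose (1.00 ± 0.36, SE) and 1 at 1239 bases at -0.022 ± 0.28 (SE). Regions of Etv5 and Spred1 had changes of 0.51 to 0.64 that did not pass the test.

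Of 24 regions at 18 immediate-early and AP-1 genes, 1 rose and 0 fell, against 13.0% and 3.89% of all regions, and their median change was 0.11. The RNA of 8 of 13 tested genes rose and that of 1 fell. The difference from the ERK feedback list was not tested. The region that rose was at Ier3, an early response gene tied to cell survival, with 15.65 and 10.03 against 60.86 and 67 at 1801 bases upstream (1.97 ± 0.34, SE). At Egr1, a zinc finger factor induced by ERK, the region had 97.61 and 122.01 against 157.86 and 117, with overlapping groups, and a change of 0.30 ± 0.26 (SE), while RNA rose by 2.45. Egr3 had 2 upstream regions at 0.69 and 0.72 that did not pass (limma adjusted p = 0.142 and 0.053), with an RNA rise of 3.03. Plaur, the urokinase receptor, had 18.42 and 16.71 against 38.04 and 34 and did not pass either (0.86, adjusted p = 0.0741). At Zfp36, an RNA-binding protein that destabilises cytokine transcripts, the stronger region had 336.1 and 273.28 against 276.72 and 325.

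Fosl1, the AP-1 subunit FRA-1, had 2 flanking regions, and neither was called. The region 2271 bases upstream had 58.01 and 71.04 with serum alone and 45.65 and 36 with FGF-2 (-0.60 ± 0.30, SE; limma adjusted p = 0.17). The region within 1 kb had 173.11 and 160.46 against 277.67 and 278 and rose by 0.72 (adjusted p = 0.0275). The difference between these changes was -1.32 ± 0.33 (SE) and did not pass (limma adjusted p = 0.0902 over all pairs). The Fosl1 region at 1193 bases had 19.34 and 19.22 against 31.38 and 14, with overlapping groups, and its difference from the start region was -0.61 (adjusted p = 0.44).

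Among growth factors and secreted ligands, 2 of 7 regions rose and 0 fell. Of all regions 13.0% were called higher and 3.89% lower. Both rises were at Il11, a cytokine of the interleukin 6 family. They had 5.52 and 4.18 against 25.68 and 12 at 2719 bases, and 6.45 and 0.84 against 14.26 and 23 at 2219 bases. These signals are low, and the calls were not stable. For the first the adjusted p was 0.0589 and 0.122 without serum library 1 or 2 and 0.559 without FGF-2 library 1, and 0.0688 with TMM scaling. For the second it was 0.161 without serum library 2 and 0.2 without FGF-2 library 2. Il11 RNA was 4.11, 4.26 and 23.7 CPM against 757, 649 and 1015 CPM. The region of Hbegf, an EGF receptor ligand, had 120.63 and 70.2 against 60.86 and 80, with overlapping groups, while its RNA rose by 2.94; without serum library 2 this region was called lower (-0.75, limma adjusted p = 0.0369).

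In the steroidogenesis and adrenocortical list, 1 of 10 regions rose and 0 fell, against 13.0% and 3.89% of all regions. The region that rose was at Star, whose product brings cholesterol into mitochondria for steroid synthesis. The region 2343 bases upstream had 34.07 and 27.58 against 75.12 and 62 (1.04 ± 0.31, SE; limma adjusted p = 0.00706), a call lost without FGF-2 library 1 (adjusted p = 0.214) or 2 (adjusted p = 0.0534). The region 1199 bases upstream had 89.32 and 47.64 against 103.65 and 104 (0.63 ± 0.28, SE; adjusted p = 0.105), and was called without serum library 1 (1.05, adjusted p = 0.0015). Star RNA was 97.0, 117 and 281 CPM against 2012, 1715 and 3162 CPM.

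Cyp11a1, the enzyme that makes pregnenolone from cholesterol, had a broad region upstream with 215.47 and 155.44 against 117.92 and 147. The FGF-2 libraries were below the serum libraries, but the change of -0.46 ± 0.26 (SE) did not pass (limma adjusted p = 0.238). It passed with TMM scaling (-0.59, adjusted p = 0.021) and without serum library 2 (-0.69, adjusted p = 0.0134). Cyp11a1 RNA fell by 0.76 on the log2 scale (edgeR adjusted p = 0.0454). Star and Cyp11a1, which act one after the other in the same pathway, thus moved in opposite directions in RNA.

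The other lists held few changes. Of all regions 13.0% were called higher and 3.89% lower, and at those shares lists of 3 to 10 regions would hold few calls. In the cytoskeleton list 1 of 10 regions rose, at Itga5, and 1 fell, at Flna, an actin cross-linker (-0.77 ± 0.29, SE); its limma adjusted p was 0.179 when serum library 1 was left out, and 0.527 and 0.149 when FGF-2 library 1 or 2 was. In the cAMP and PKA list 1 of 5 regions fell, at Akap1, an anchoring protein of protein kinase A on mitochondria, with 71.82 and 62.68 against 33.28 and 34 (-0.90 ± 0.30, SE). The Akap1 region was not called either when serum library 1 (adjusted p = 0.0923), FGF-2 library 1 (0.222) or FGF-2 library 2 (0.168) was left out. No region was called among 8 of cell cycle and mitosis genes, 6 of the FOXO and insulin list, 3 of the BMP-SMAD list and 7 of the chromatin acetylation list. Bub1b, a spindle checkpoint kinase, had 42.36 and 33.43 against 37.09 and 34 at 1926 bases, while its RNA fell by 1.88 on the log2 scale.

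Markers of the adrenal medulla and of endothelium and blood were low, while the summed fibroblast and capsule markers were not. Of 9 medullary markers 3 had 0 counts, and their summed level, as CPM of library totals, was 6.59 to 8.46 CPM with serum alone and 1.97 to 3.44 CPM with FGF-2. Of 8 endothelial and blood markers 3 had 0 counts, with sums of 9.89 to 16.7 and 8.27 to 10.7 CPM. Of 9 fibroblast and capsule markers Col1a2, Dcn and Tcf21 had 0 counts, and the sum, mostly Col1a1, was 3514 to 4191 CPM and 1926 to 2760 CPM. The 4 fibroblast markers that passed the filter were also summed with the TMM factors used for the other RNA values. These sums were 3050 to 3815 and 2227 to 3092 CPM, which overlap narrowly. Col1a1 and Gli1 were not called (edgeR adjusted p = 0.0538 and 0.249), while Col3a1 was called lower (-0.46, edgeR adjusted p = 0.0281). The summed adrenocortical markers were 754 to 962 CPM and 2020 to 3233 CPM. This rise was in Star, with 3811 counts in all serum libraries and 57531 in all FGF-2 libraries. Nr5a1 had 1956 and 1980, Fdx1 3555 and 3261 and Cyp11a1 3166 and 1825. These counts are not corrected for depth, which was 5625004 to 9101089 per serum library and 6403095 to 12696426 per FGF-2 library. Equal counts in the 2 groups are thus a lower level with FGF-2. Flanking regions of these other cell types numbered 5 and none was called, where 13.0% of all regions were called higher and 3.89% lower. In bulk RNA, fewer cells of a type and less RNA per cell cannot be told apart, and the part of these levels in any result was not tested.

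MicroRNA genes were the nearest gene of 29 flanking regions, at 22 genes; 7 regions rose and 3 fell, where 13.0% and 3.89% of all regions were called higher and lower. Polyadenylated RNA does not measure mature microRNAs, so only the chromatin values are known. The mature forms are shown for the genes with the strongest calls, with bases 2 to 8, the seed, in capitals, to show that none of them share a seed. Of the 10 genes with a called region, 9 have mature sequences in the RefSeq table, and these 16 sequences had 16 different seeds.
miR-493-3p: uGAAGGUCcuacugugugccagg
miR-7228-5p: uGGCGACCugaacagaugu
miR-680: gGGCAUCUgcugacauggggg
miR-130a-3p: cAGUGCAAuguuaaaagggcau
miR-467h: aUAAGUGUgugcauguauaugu
miR-3061-5p: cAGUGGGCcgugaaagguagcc

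The region 2280 bases downstream of Mir493, in a cluster of microRNA genes on chromosome 12, had signals of 1.84 and 0.84 with serum alone and 35.18 and 33 with FGF-2. It was at or near the floor of 1 read in both serum libraries and clear in both FGF-2 libraries (2.63 ± 0.42, SE; limma adjusted p = 2.39e-08). One of 2 upstream regions of Mir7228 had 33.15 and 40.95 against 101.75 and 106, and the region of Mir680-3 had 35.91 and 33.43 against 101.75 and 84. Regions that fell were at Mir130a, with 122.47 and 104.46 against 44.69 and 72, at Mir467h, with 157.46 and 106.13 against 70.37 and 53, and at Mir3061, with 22.1 and 20.89 against 2.85 and 6. The groups did not overlap in these 6 regions, but the regions were picked because they were called.

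To ask whether flanks changed apart from their starts, 1459 flanking regions were compared with the nearest region within 1 kb of a TSS of the same gene, of which there were 1240. Of these pairs 53 were called higher in both regions and 5 lower in both, while 182 had a call in the flank only and 60 in the start region only. No pair had calls in opposite directions. A call in one region and not in the other is no test of a difference, so the difference was tested itself. The flank rose more in 2 pairs and fell more, or rose less, in 2 pairs (0.137% each) at an adjusted p below 0.05. With a pseudocount of 1 no flank rose more at this threshold, so the calls of Srxn1 and Pigc, whose flanks are near the floor with serum alone, end there.

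The 2 pairs with the larger rise in the flank were Srxn1 and Pigc, whose start sequences are given above. At Srxn1 the start region had 211.79 and 137.06 against 207.3 and 262, and the flank exceeded it by 2.38 ± 0.40 (SE; limma adjusted p = 0.0435). At Pigc the start region had 132.6 and 114.49 against 134.08 and 143, and the difference was 2.41 ± 0.39 (SE). In both genes the start region was acetylated with serum alone, and only its flank was near 0. The 2 pairs of the other kind share 1 start region, at Dhx34, a helicase of nonsense-mediated decay, which had 0.92 and 0.84, the floor, against 64.66 and 42. It lies 7050 and 5957 bases from the flanks, which are near another start of the gene in the authors' annotation. The RefSeq starts of Dhx34 used here are at positions 16222032 and 16221993 of chromosome 7. They are far from the start region (chr7:16202913-16204233) and from both flanks. These flanks had 6.45 and 10.86 against 10.46 and 13, and 11.97 and 15.88 against 39.94 and 30. Dhx34 RNA rose by 2.2.

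The number of such pairs depended on the filter, the pairing and on single libraries. With the replicate block 51 flanks rose more and 16 less. With a mean signal of at least 20 in both regions, 35 flanks rose more and 13 less. Leaving out serum library 1 or 2 gave 6 or 44 that rose more and 5 or 6 that rose less. Leaving out FGF-2 library 1 or 2 gave 17 or 55 and 17 or 16. After the called pairs, Scube3 had the smallest p, with a start region of 350.83 and 232.33 against 222.52 and 282 and a difference of 1.77 ± 0.33 (SE; limma adjusted p = 0.0695). Tmem219 followed with a difference of 1.68 ± 0.32 (SE) and low signals in the flank. Then came Efemp2, an elastic fibre protein, where the flank had 25.78 and 25.07 against 125.52 and 123 and the start region 556.18 and 399.47 against 563.91 and 651, with a difference of 1.73 ± 0.34 (SE; limma adjusted p = 0.0695), and Zfp568, where the start region had 232.05 and 172.99 against 196.84 and 209 (difference -1.70 ± 0.33, SE; adjusted p = 0.0695).

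**Figure D3:**
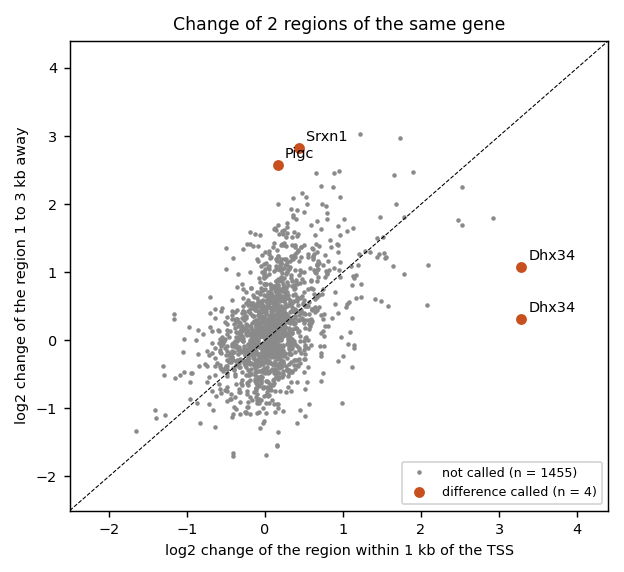
Log2 change of H3K27ac (serum with FGF-2 minus serum alone) in a region 1 to 3 kb from the TSS against that of the nearest region within 1 kb of a TSS of the same gene, for 1459 pairs. The dashed line marks equal changes; Srxn1 and Pigc lie above it and both Dhx34 pairs below it, and these 4 are the pairs with a called difference.

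Several genes had 2 or more flanking regions called. This was the case for 27 of the 279 genes with 2 or more flanking regions, each with its calls in 1 direction. The like share over all regions was not computed. Since 80.9% of the calls in flanking regions were higher, a shared direction is not read as a result. Angptl4, a secreted inhibitor of lipoprotein lipase, had 3, at 2120 and 1153 bases downstream and 2105 bases upstream, which rose by 1.70, 2.26 and 1.21. The middle one had signals of 8.29 and 8.36 against 77.98 and 44. Avil, an actin-binding protein, had 195.21 and 180.51 against 570.56 and 484 at 1633 bases. The pairs that fell were at Exosc6, with -1.70 (both FGF-2 libraries at the floor of 1 read) and -1.65, and at Shld1, with -1.06 at both regions. Neighbouring regions of a gene come from the same libraries and are not replicates. Avil, Exosc6 and Shld1 were named after their values were seen.

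RNA gave a readout that the choice of regions did not use. Of 1187 tested genes with a flanking region, 318 had higher RNA with FGF-2 (26.8%) and 314 lower RNA (26.5%), against 22.1% and 24.2% of all 10374 tested genes. The direction of the RNA calls depends on scaling, with 183 higher and 543 lower when library totals are used in place of TMM. Of 173 genes with a flanking region called higher, 92 had higher RNA and 17 lower RNA, with a median log2 change of 0.62 (0.28 with library totals as scaling). Of 36 genes with one called lower, 6 had higher and 15 lower RNA, with a median of -0.20 (-0.54 with library totals). Of 978 genes with no call, 220 and 282 were higher and lower.

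By region, 121 of 1435 flanking regions tied to a tested gene were called in the same direction as the RNA (8.43%) and 26 in the opposite one (1.81%). Over the whole table these shares were 8.09% and 1.89%, so a flanking region went with the RNA of its gene about as often as any other region. Of the regions called the same way, 106 were higher and 15 lower with the RNA. Regions of genes with higher RNA had a median change of 0.48, those with lower RNA -0.082 and those with no RNA call 0.16. Among the genes that rose in both were Itga5, Dusp7, Srxn1, Angptl4 and 2210406O10Rik. The last is an uncharacterised gene with 12.89 and 15.88 against 97 and 63 in its region and an RNA change of 3.99.

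Of the 26 opposite calls, 20 were regions that rose with lower RNA and 6 regions that fell with higher RNA. Dnmt1, Dock1 and Pdzd7 each had 2 regions of the first kind, and the 4 genes of smallest p were Cgnl1, Pdzd7, Scube3 and Coro6. Cgnl1, a junction protein related to cingulin, had signals of 8.29 and 2.51 against 71.32 and 76 at 2073 bases (2.98 ± 0.36, SE; limma adjusted p = 3.90e-14). This region was also among the largest called increases chosen for groups without overlap, so the distance between its groups is no result. The RefSeq start of Cgnl1 in the table used here, at position 71771602 of chromosome 9, is far from this region (chr9:71628261-71629036), whose distance is to another start in the authors' annotation. Cgnl1 RNA was 238, 167 and 209 CPM with serum alone and 67.9, 96.5 and 66.4 CPM with FGF-2, with a log2 change of -1.41 ± 0.18 (SE; edgeR adjusted p = 0.000265). Scube3, a secreted and membrane-bound signalling protein, had 11.97 and 10.03 against 39.94 and 46, with RNA of 129, 145 and 146 CPM against 60.0, 66.7 and 48.9 CPM. The region of Coro6 was not called without FGF-2 library 1 (adjusted p = 0.17), and that of Pdzd7 not without FGF-2 library 2 (adjusted p = 0.0636). Pdzd7 RNA was low, at 1.72 to 1.83 CPM with serum alone. The RefSeq start of Pdzd7, at position 45045772 of chromosome 19, is also far from its region (chr19:45027285-45028002).

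**Figure D4:**
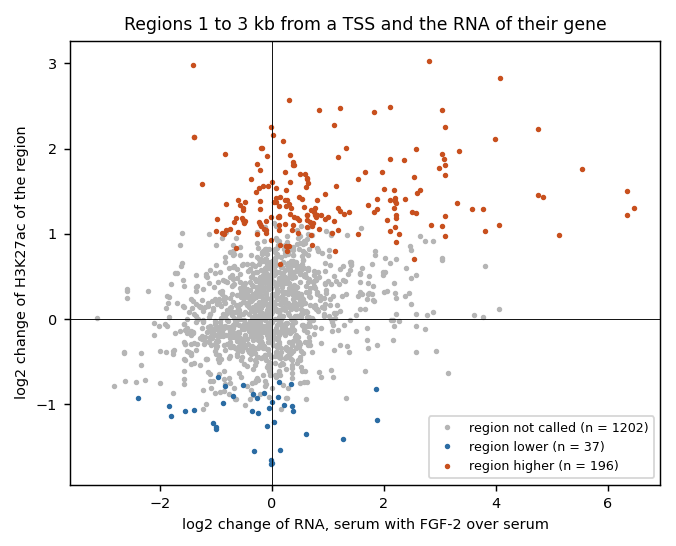
Log2 change of H3K27ac in a flanking region against the log2 change of RNA of its gene, for 1435 regions tied to a tested gene, coloured by the call of the region in limma. Orange points, regions called higher, lie more often to the right of 0, and the point at the upper left is Cgnl1.

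The authors called peaks in each library against its input, and these lists come from the same reads as the signals. A peak overlapped 1543 and 1386 of the flanking regions with serum alone and 1644 and 1595 with FGF-2, and the peaks' own fold over background had medians of 6.89 to 7.08 in the 4 libraries. A peak was present in every library at 937 regions, in both FGF-2 libraries and no serum library at 239, and in both serum libraries and no FGF-2 library at 117. Of these 239 regions 132 were called higher and 0 lower, and of the 117 regions 18 were called lower and 0 higher. Regions with a peak in every library were wider, with a median of 1034 bases against 369 and 372, and 80 of them were called higher and 30 lower. Appearance of a peak and a rise in signal rest on the same reads, so neither is support for the other.

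**Figure D5:**
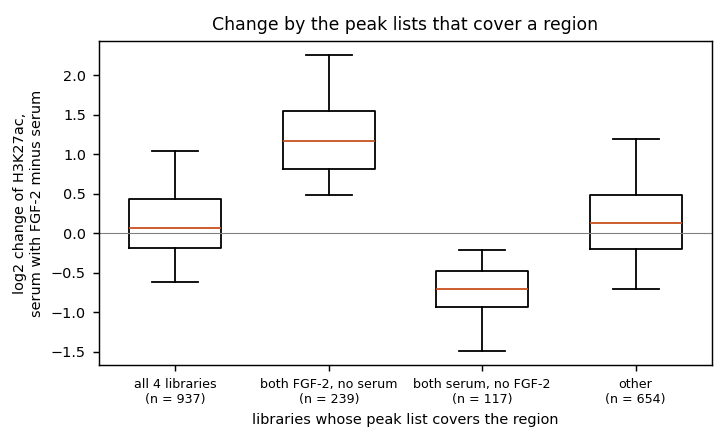
Log2 change of H3K27ac in flanking regions grouped by the libraries whose peak list covers them. Boxes span the quartiles, the coloured line is the median and whiskers reach the 5th and 95th percentiles; the median is 1.17 where only the FGF-2 libraries had a peak and -0.71 where only the serum libraries had one.

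Some flanking regions held a start that RefSeq lists. Of 1894 regions compared with RefSeq starts, 34 held one, 97 were within 1000 bases of one, 1360 lay 1000 to 3000 bases away and 403 farther. The 34 regions had a median signal per kb of 70.4 against 40.5 for the 1360, and 4 were called higher and 1 lower, against 189 and 43 of the 1360, shares near those of all regions (13.0% and 3.89%). The region with the Gm10369 start, assigned to Limk1, a kinase of cofilin, had 60.77 and 32.59 against 80.83 and 110 (1.00 ± 0.29, SE; limma adjusted p = 0.00524). The one with the Gm33659 start had 586.56 and 651.85 against 1211.5 and 982 (0.81 ± 0.23, SE; adjusted p = 0.00439). The windows shown above for these starts hold 4 and 1 CpG. The region with the Sco2 start, a copper chaperone of cytochrome oxidase, had 276.25 and 207.26 against 223.47 and 254 (-0.0064 ± 0.25, SE), with overlapping groups and 29 CpG in its window.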

How the data were processed

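The study holds 4 H3K27ac libraries with their inputs and 6 RNA libraries of Y1 cells. Per the submitters' processing notes, the build was mm10, and the tools named are HTSeq 0.10.0 and DESeq2 among those for RNA, MACS2 2.2.6, ChIPseeker and DiffBind among those for peaks, and STAR 2.5.2a, bedtools 2.15.0 and SAMtools 1.1. The authors' region table gives a signal per library, log2 fold changes, p-values and false discovery rates, per the file headers. From the values, each signal is a whole number of reads (within 0.02 for 100% of values), at least 1, divided by a library factor. Whether input reads were subtracted first is not given in the sources used here. Peaks were called per library against its input, and the peak lists give a fold enrichment ratio and −log10 q per peak, per the file headers. The authors deposited raw read counts per gene symbol for RNA; values of overlapping genes are uncertain, because the strand setting of the counting is not given in the sources used here.

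Regions were tested over the whole table with limma 3.58.1 (trend, robust) on log2(signal + 5), pairs with limma on the difference between 2 regions in each library, and RNA with edgeR 4.0.16 (quasi-likelihood, TMM, filterByExpr) in R 4.3.3, all with Benjamini-Hochberg adjustment at 0.05. RNA CPM use TMM factors. Both fits were tested on simulated data. edgeR and DESeq2 1.42.0 on recovered reads, other pseudocounts, scalings, filters and left-out libraries were alternatives. Figures used Python 3.11.15 and matplotlib 3.10.9.

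Regions named are the 10 largest called changes each way at a mean signal of at least 20 without overlap, up to 2 each way per gene list, those of 30 preset genes, the 6 smallest p called alike and 4 called oppositely in both assays, and the 5 pairs of smallest p each way; some of these are not reported here. MicroRNA regions, other regions of the gene lists and those with a RefSeq start were named after their values were seen. The regions and lists were chosen with earlier results of these data known. Sequences come from RefSeq (GRCm38.p6); the bases of the regions themselves were not analysed here. Promoter windows matched 1263 of 1633 genes and mature sequences 20 of 22 microRNA genes. Counts of the 2 libraries of a group differed beyond sampling noise (chi-square divided by degrees of freedom: 2.47 and 2.54). Regions were joined to RNA by symbol, or by Entrez number through the RefSeq table (1894 matched directly).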

Additional observations from a re-analysis of the deposited data

How the results depend on the processing

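The counts of flanking regions called higher and lower, 266 and 63, were 147 and 42 with a mean signal of at least 20, 199 and 99 with TMM scaling, 195 and 97 with total signal as scaling, 89 and 27 with DESeq2 on recovered reads, 191 and 91 with edgeR, and 147 and 26 by the authors' false discovery rate. Leaving out each library gave 75 to 259 and 19 to 81. Whether same-numbered H3K27ac libraries belong together is not known. The deviations of same-numbered libraries had a correlation of -0.27, which cannot settle this. With the replicate block the counts were 218 and 41, and with the crossed pairing, chosen after seeing the data, 333 and 86. Leaving out regions with a value at the floor of 1 read, also chosen after seeing the data, gave 212 and 57. The median change of the flanking regions, 0.14, was 0.033 with TMM scaling and 0.014 to 0.28 without single libraries.

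Pairs whose flank rose more numbered 0 and 25 with pseudocounts of 1 and 20, 51 with the replicate block, 35 with a mean signal of at least 20 in both regions and 6 to 55 without single libraries. Pairs whose flank fell more numbered 19 with a pseudocount of 20, 16 with the replicate block, 13 with the signal filter and 5 to 17 without single libraries; the cause was not tested. Library totals as RNA scaling gave 183 genes higher and 543 lower. RNA replicate numbers correlated by -0.13, 0.05 and 0.39 and were not treated as pairs. Requiring a peak to cover 0.5 of the region or more left 514 regions with a peak in every library.

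Of 37 named called regions, 20 stayed past the threshold in all 9 settings tried on each and 17 lost the call in at least 1; none changed sign. The 9 settings were pseudocounts of 1 and 20, scaling by TMM, total signal or fragments, and each library left out. They did not include edgeR, DESeq2, the authors' false discovery rate, the signal filter or the replicate block. Scaling by fragments gave the same counts as the main fit, 266 higher and 63 lower. In the deposited signal 1 read stands for 0.921 and 0.836 in the serum libraries and 0.951 and 1 in the FGF-2 libraries. These values are close to inversely proportional to the fragments of each library. The setting is thus nearly the main fit and could hardly lose a call. Of 23 named regions not called, the Cdkn1a region at 2830 bases had changes of -0.22 to 0.057 without single libraries. The Fosl1 region at 1193 bases upstream had -0.35 to 0.58. With 2 libraries per group, signals of under 10 carry few reads. A value at the floor says only that the deposited signal held at most 1 read. Whether input reads were subtracted before that is not known.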
